A study of Mus musculus with 9 samples.

Results

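The gene expression of the newborn mouse cortex with constitutively active Smoothened was compared with that of wild-type littermates. The comparison takes 6 of the 9 libraries of the series, 3 labelled SmoM2 and 3 labelled wild type, and every gene of the shared count table that passed an expression filter. That filter left 16485 of 23624 genes. The SmoM2 animals were hGFAP-Cre, SmoM2f/+, that is, Cre driven by the human GFAP promoter and 1 conditional copy of SmoM2, an activated form of the SHH transducer Smoothened. Cre under this promoter recombines in neural progenitors and is inherited by the cells they produce, so the dissected cortex also holds cells without the recombined allele. The wild-type animals are labelled littermates, and both groups were of a mixed C57BL/6J, 129S6 and CD1 background, taken at postnatal day 0 (P0). The remaining 3 libraries of the series, labelled ShhN IUE, came from cortex electroporated in utero with ShhN, the signalling part of Sonic hedgehog (SHH), and are used below for 1 direct contrast. Nothing in the labels states that replicates are different animals, so the p-values measure the spread between these libraries. How much of that spread is technical was not tested, though wild-type library 3 differed from the other wild-type libraries in Y-linked counts (below).

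SHH binds the receptor Patched1, which otherwise holds Smoothened inactive. Active Smoothened acts at the primary cilium to turn GLI transcription factors from repressors into activators, and the induced genes include Gli1 and the feedback inhibitors Ptch1 and Hhip. In the developing forebrain SHH is known for ventral patterning, for keeping progenitors in division and for the birth of oligodendrocytes. Late in cortical development, radial glia stop making pyramidal neurons and give rise to progenitors of glia and of olfactory bulb interneurons. The title of the series places the comparison there, asking how SHH directs the succession of cell types made by cortical stem cells.

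Of the 16485 genes tested, 1581 (9.59%) rose and 1531 (9.29%) fell in SmoM2 at an adjusted p under 0.05 (edgeR quasi-likelihood F test, Benjamini-Hochberg), 18.9% in all. The 3 SmoM2 libraries and the 3 wild-type libraries did not overlap in level for 40.1% of the genes, SmoM2 being higher in 20.4% and lower in 19.7%. Over all genes the median log2 fold change was -0.01. The shares of 9.59% and 9.29% are the background for the list counts below. Levels are given below as CPM, counts scaled to the library total with TMM factors, which compares libraries but not genes of different length. Values after ± are SDs over 3 libraries for CPM and standard errors for log2 fold changes, written as SmoM2 over wild type. Without SmoM2 library 1, 2 or 3, the number of genes that rose was 956, 907 and 733, and the number that fell 771, 787 and 601. Those fits set 2 SmoM2 libraries against 3 wild-type libraries.

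**Figure D1:**
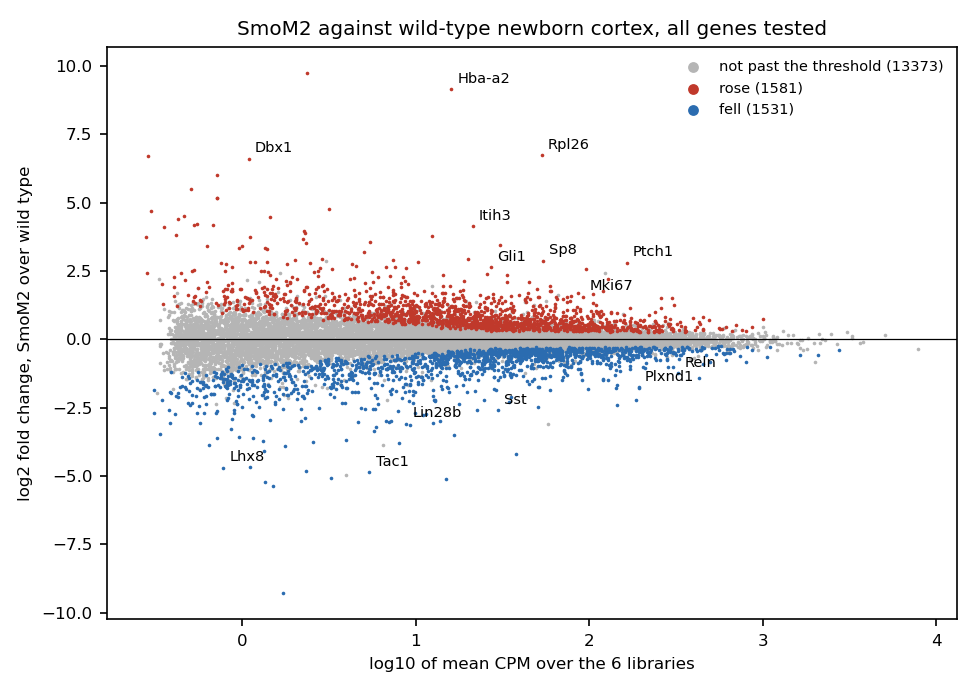
Log2 fold change of SmoM2 over wild type for each of the 16485 genes tested, against the log10 of its mean CPM over the 6 libraries. Red points are the 1581 genes that rose and blue points the 1531 that fell (edgeR, adjusted p under 0.05). Rpl26 and Hba-a2, which stand far above other genes of their level, belong to families with near-identical copies.

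The libraries held 18617404 to 21632586 counts in wild type and 23625702 to 26923127 in SmoM2, and these ranges do not overlap (exact permutation test, two-sided, p = 0.1, and no smaller p can be reached with 3 against 3). Mitochondrial genes took 1.46% ± 0.111 of counts in wild type and 1.38% ± 0.345 in SmoM2 (SD, exact permutation p = 0.7). The first principal component (54.2% of variance) separated the groups, and the second (18.8%) separated wild-type library 1 (38.8) from wild-type libraries 2 (-35.9) and 3 (-19.7), with the SmoM2 libraries between -1.51 and 11.6, so the wild-type libraries were the more spread on it. Wild-type library 3 had 8 counts over 4 Y-linked genes, against 4578 to 6678 in the other 5 libraries. Summed markers of meninges ranged from 51.6 CPM in wild-type library 1 to 1066 CPM in wild-type library 2. Tbr1, a transcription factor of early cortical neurons, was expressed in every library, with 416, 329 and 399 CPM in wild type and 190.1, 189 and 192 CPM in SmoM2. How depth, sex and carried-over tissue contribute to the differences below was not tested, beyond leaving out each library in turn.

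The core target genes of the SHH pathway, Gli1, Ptch1 and Hhip, rose in SmoM2. Of 18 listed targets 16 were tested (Nkx6-1 and Foxa2 were too low). Among these, 8 (50%) rose and 2 (12.5%) fell, against 9.59% and 9.29% of all genes tested. The median log2 fold change was 0.58. Gli1, the transcriptional activator that is the most widely used readout of the pathway, had 5.63, 9.14 and 7.71 CPM in wild type and 47.3, 42.7 and 49.96 CPM in SmoM2. It rose 6.21-fold (log2 fold change 2.63 ± 0.18, edgeR adjusted p = 0.000159). Ptch1, the SHH receptor and a negative feedback target, had 30.00, 43 and 50.9 CPM in wild type and 271, 299.7 and 294 CPM in SmoM2. It rose 6.98-fold (2.80 ± 0.18, edgeR adjusted p = 0.000136). Hhip, a membrane protein that captures the ligand, had 1.7, 3.0 and 2.79 CPM in wild type and 17.1, 18.6 and 18.4 CPM in SmoM2 and rose 7.2-fold (edgeR adjusted p = 0.00028). For these 3 genes every SmoM2 library lay more than 4 times above every wild-type library, and the SmoM2 libraries were close to each other.

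Among the other targets, cyclins rose and 2 genes fell. Ccnd2, the D-type cyclin of cortical progenitors, had 139, 171 and 161 CPM in wild type and 384, 429 and 522 CPM in SmoM2 and rose 2.83-fold (edgeR adjusted p = 0.000425). Ccnd1 rose 1.56-fold (edgeR adjusted p = 0.0315), a call that was lost without wild-type library 1 or 3 or any SmoM2 library (adjusted p up to 0.103). Mycn, a mitogenic target in cerebellar granule cell precursors, had 134, 114 and 99.9 CPM in wild type and 107, 89.4 and 102 CPM in SmoM2, overlapping levels with a log2 fold change of -0.22 ± 0.12 (edgeR adjusted p = 0.261). Bcl2, an anti-apoptotic gene, fell by 0.49 on the log2 scale (edgeR adjusted p = 0.0083). Sfrp1, a WNT inhibitor, fell by 0.41 (edgeR adjusted p = 0.0375), which did not hold when any 1 of the 6 libraries was left out, so 1 target fell in each of those fits instead of 2.

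Of 22 listed components that transduce the signal 4 (18.2%) rose and 2 (9.09%) fell, against 9.59% and 9.29% of all genes tested, and 16 did not pass, with a median of 0.12. Smo had 20.6, 26.1 and 19.1 CPM in wild type and 84.2, 71.7 and 80.3 CPM in SmoM2, a rise of 3.59-fold (1.84 ± 0.14, edgeR adjusted p = 0.00027). Its counts may include reads of the SmoM2 transcript, which was not tested. Among the GLI factors, Gli2, the main activator, rose from 6.75 ± 0.853 to 13.5 ± 1.93 CPM, 1.99-fold (edgeR adjusted p = 0.00694). Gli3, the main repressor, had 22.3, 18.8 and 17.3 CPM in wild type and 14.7, 12.6 and 16.1 CPM in SmoM2. It was lower in each SmoM2 library than in each wild-type library, as were 19.7% of genes tested. Gli3 was not past the threshold (-0.43 ± 0.15, edgeR adjusted p = 0.0849). Of the co-receptors that help SHH bind, Cdon fell from 61.2 ± 5.12 to 36.9 ± 5.37 CPM (edgeR adjusted p = 0.00679), while Boc (0.16) and Gas1 (0.14) did not pass. Evc, a ciliary partner of Smoothened, rose 1.77-fold (edgeR adjusted p = 0.00457). The ligand Shh was at 1.86, 2.82 and 1.7 CPM in wild type and 0.183, 0.635 and 0.345 CPM in SmoM2 and fell 5.52-fold (edgeR adjusted p = 0.00697). In the 9-library fit its log2 fold change was -2.454, against -2.465 here, but did not pass (0.0960). Scube3, a ligand release factor, was the other component that fell, and 1 component fell instead of 2 without SmoM2 library 2 or 3.

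On the authors' deposited FPKM scale, which divides by transcript length and so allows genes to be compared, the mean level of Ptch1 went from 2.45 in wild type to 17.4 in SmoM2, Gli1 from 2.03 to 12.8 and Hhip from 0.483 to 3.55. By the same scale Gli1, the lowest of Gli1, Smo and Ptch1 in wild type, reached 12.8 beside 12.6 for Smo in SmoM2, while Gli2 (0.912 to 1.85) and Gli3 (1.86 to 1.41) remained below 3. Gas1 was the most abundant co-receptor in both groups, at 13.1 ± 1.21 in wild type and 14.7 ± 2.43 in SmoM2 (SD, 3 libraries).

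**Figure D2:**
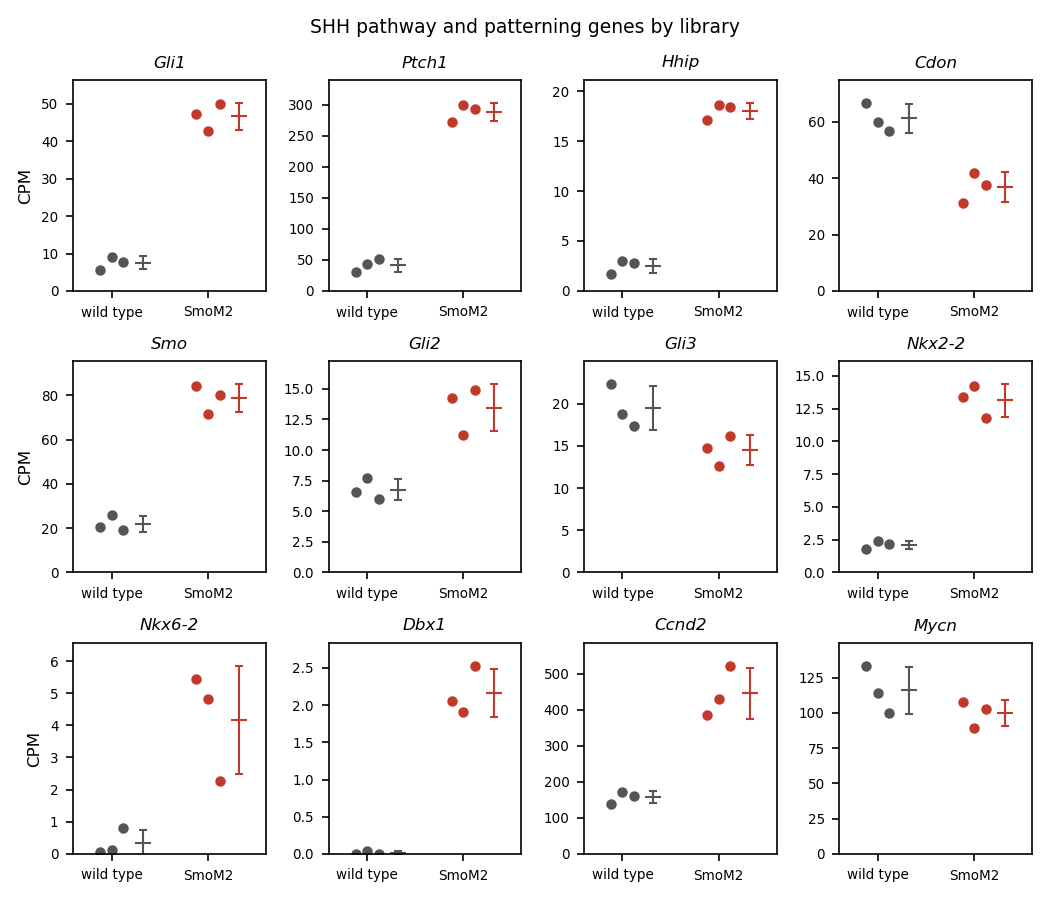
CPM of SHH pathway and patterning genes in each library (points), with mean and SD of the 3 libraries of a group (bars). Gli1, Ptch1, Hhip, Smo, Nkx2-2, Dbx1 and Ccnd2 separate the groups, whereas the levels of Mycn overlap.

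Patterning factors of the ventral neural tube, spinal cord and ventral forebrain changed in part in the SmoM2 cortex. Of 20 listed patterning factors 19 were in the table and 11 passed the expression filter. Among these 11, 5 (45.45%) rose and 2 (18.2%) fell, against 9.59% and 9.29% of all genes tested. Dbx1, a homeodomain factor of intermediate progenitor domains, had 1 count over the wild-type libraries and 167 over the SmoM2 libraries, a ratio of scaled counts of 129 with a 95% exact counting interval of 22.9 to 5142. Its levels in SmoM2 were 2.06, 1.91 and 2.53 CPM (edgeR adjusted p = 0.000432). Without wild-type library 2, which held that count, the fitted log2 fold change went from 6.61 to 8.64. Nkx6-2, which marks ventral progenitors, had 0.0516, 0.137 and 0.821 CPM in wild type and 5.43, 4.83 and 2.26 CPM in SmoM2. Its log2 fold change of 3.66 ± 0.70 (edgeR adjusted p = 0.00987) was 5.37 without wild-type library 3. Nkx2-2, a factor of the most ventral neural progenitors and of oligodendrocytes, had 1.76, 2.41 and 2.13 CPM in wild type and 13.4, 14.2 and 11.8 CPM in SmoM2 and rose 6.22-fold (edgeR adjusted p = 0.000247). Gsx1, a factor of the ganglionic eminences, rose 3.93-fold from 1.17 ± 0.341 to 4.64 ± 0.972 CPM, and Dbx2 rose 2.84-fold from 1.76 ± 0.569 to 5.03 ± 1.35 CPM.

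Nkx2-1, which specifies the medial ganglionic eminence downstream of SHH, had 2.94, 3.91 and 4.05 CPM in wild type and 4.15, 4.45 and 3.45 CPM in SmoM2, a log2 fold change of 0.14 ± 0.22 (edgeR adjusted p = 0.686). Lhx8, a target of Nkx2-1 in cholinergic neurons, fell from 1.5 ± 0.341 to 0.0527 ± 0.046 CPM (edgeR adjusted p = 0.00147). Isl1, a factor of striatal and motor neurons, fell 12.7-fold from 7.32 ± 4.39 to 0.569 ± 0.0809 CPM, or -3.67 on the log2 scale, which became -3.05 once wild-type library 3 was left out. The 8 patterning factors of the table that were too low to test were Nkx2-9, Nkx6-1, Foxa1, Foxa2, Pax3, Pax7, Otx2 and Otp.

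Genes of the progenitors that give rise to glia and olfactory bulb interneurons rose in part. Of 18 genes listed for multipotent intermediate progenitors 10 rose and 0 fell, with a median of 0.85. At an unadjusted p under 0.05, 1 was lower. By tool, 1 fell with DESeq2 and 0 with limma-voom, and 1 fell in edgeR without wild-type library 2 or 3. Egfr, the growth factor receptor that marks these progenitors, had 34.9, 42.2 and 44.6 CPM in wild type and 69.3, 66.6 and 77.4 CPM in SmoM2 and rose 1.75-fold (edgeR adjusted p = 0.00342). Olig2, the oligodendrocyte lineage factor, had 30.1, 38.7 and 41.4 CPM in wild type and 102, 79.8 and 89.9 CPM in SmoM2 and rose 2.46-fold (edgeR adjusted p = 0.00108). Gsx2, which directs ventral telencephalic fate, rose 2.94-fold from 1.72 ± 0.45 to 5.06 ± 0.392 CPM. Fgf15, a secreted FGF of neural progenitors, rose 7.08-fold from 0.27 ± 0.0413 to 1.94 ± 0.495 CPM. The Notch ligands Dll1 and Dll3 and the Notch glycosyltransferase Mfng rose as well, with log2 fold changes of 0.84, 0.89 and 1.77, the call of Dll3 being lost without SmoM2 library 1. For Egfr, Olig2, Gsx2 and Fgf15 the lowest SmoM2 value exceeded the highest wild-type value, as it did for 20.4% of all genes tested. As in any bulk sample, more cells of a type and more RNA per cell cannot be told apart.

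Of 14 listed genes of the Dlx family and GABA synthesis 13 were tested, 9 (69.2%) rose and 1 (7.69%) fell, against 9.59% and 9.29% of all genes tested (median 1.19). The homeodomain factor Dlx2 had 47.3, 46.7 and 56.7 CPM in wild type and 159.6, 146 and 172 CPM in SmoM2 and rose 3.17-fold (edgeR adjusted p = 0.000159). Dlx1 rose 2.89-fold, Dlx5 2.53-fold and Sp9 2.92-fold. For the genes of the GABA phenotype itself the values were smaller. Gad1, which makes GABA, rose 1.42-fold (edgeR adjusted p = 0.0147), a call lost without SmoM2 library 2 or 3 and in the fit of all 9 libraries (up to 0.0931). Gad2 had a log2 fold change of -0.09. Slc32a1, the vesicular GABA transporter, fell from 39.1 ± 3.72 to 25.9 ± 1.02 CPM (edgeR adjusted p = 0.00664). Dlx6, another factor of the family, had 7.08, 6.51 and 8.81 CPM in wild type and 4.62, 5.72 and 6.86 CPM in SmoM2 and did not pass (-0.38, edgeR adjusted p = 0.246).

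Among 20 genes listed for olfactory bulb interneurons, Scgn and Th were too low to test. Of the 18 tested, 9 (50%) rose and 1 (5.56%) fell, Cdh13, against 9.59% and 9.29% of all genes tested. Without wild-type library 2 or 3 or SmoM2 library 2, 2 fell. Sp8, a zinc finger factor of these interneurons, had 10.6, 14 and 14.1 CPM in wild type and 98.8, 95.1 and 91.1 CPM in SmoM2 and rose 7.38-fold (2.88 ± 0.13, edgeR adjusted p = 4.8e-05). Sall1, a zinc finger factor, rose 3.88-fold from 24.4 ± 5.38 to 94.5 ± 3.1 CPM. Prokr2, the receptor that guides these neurons into the bulb, rose 3.22-fold, and Tshz1 rose 2.67-fold. Genes shared with other migrating or mature interneurons did not pass in edgeR, with Dcx at -0.07, Synpr at 0.01, Erbb4 at -0.47 and Calb2 at -0.76. Erbb4 was past the threshold with DESeq2, with the replicate block and without SmoM2 library 2, and Calb2 with DESeq2 and in the fit of all 9 libraries. The wild-type counts of Dcx differ between the deposited tables (log2 ratio of the SmoM2 table over the ShhN IUE table -0.97).

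Some genes of the pyramidal neuron lineage fell. Of 13 tested members of 15 listed for pyramidal intermediate progenitors, 4 (30.8%) fell and 1 (7.69%) rose (2 without wild-type library 1). These shares compare with 9.29% and 9.59% of all genes tested. Eomes, the T-box factor that defines these progenitors, had 13.4, 9.96 and 12 CPM in wild type and 4.0, 3.13 and 5.83 CPM in SmoM2 and fell 2.73-fold (edgeR adjusted p = 0.00623). Sstr2 fell 2.72-fold and Nhlh2 2.5-fold. Neurog2, the proneural factor upstream of Eomes, had 5.42, 7.6 and 6.35 CPM in wild type and 5.06, 4.45 and 6.75 CPM in SmoM2, overlapping levels (edgeR adjusted p = 0.467). The member that rose was Btg2, which several neural progenitors express before their last division (2.74-fold, edgeR adjusted p = 0.00222). Btg2 is also counted among the genes that rose in the p53 target and immediate early lists below.

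Of 18 listed transcription factors of radial glia, the stem cells of the cortex, 17 were tested (median 0.49). Among these, 6 (35.3%) rose and 2 (11.8%) fell, against 9.59% and 9.29% of all genes tested. Pax6 had 20.4, 16.6 and 21.4 CPM in wild type and 41.7, 38.2 and 45.1 CPM in SmoM2 and rose 2.15-fold (edgeR adjusted p = 0.0012). Sox2 rose 2.17-fold from 55.7 ± 3.6 to 121 ± 11.4 CPM, and Rfx4 2.38-fold. Emx1 had 39.9, 28.7 and 40.3 CPM in wild type and 26.8, 22 and 21.6 CPM in SmoM2 and fell by 0.63 on the log2 scale (edgeR adjusted p = 0.0265), lost without wild-type library 1 or 3 or SmoM2 library 2 or 3. Emx2 had 8.52, 9.14 and 9.3 CPM in wild type and 5.47, 4.92 and 5.29 CPM in SmoM2 and fell by 0.78 (edgeR adjusted p = 0.0115), lost without SmoM2 library 2 or 3. The number of these factors that fell was thus 1 without wild-type library 1 or 3 and 0 without SmoM2 library 2 or 3. The target genes of Notch that keep radial glia undifferentiated did not pass, Hes1 at 0.42 ± 0.19 and Hes5 at 0.62 ± 0.30, although Hes5 passed without wild-type library 2 (1.07, adjusted p = 0.0121).

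Surface and filament genes of radial glia included 10 that rose of 20 and 0 that fell in edgeR (1 without wild-type library 3, 1 with DESeq2, 0 with limma-voom and 1 at an unadjusted p under 0.05). Vim had 80.2, 82.3 and 104 CPM in wild type and 188, 160.1 and 184 CPM in SmoM2 and rose 2.0-fold, and Nes rose 1.91-fold from 72.5 ± 6.47 to 138 ± 18.1 CPM. The glutamate transporter Slc1a3 had 156, 221 and 168 CPM in wild type and 432, 437 and 432 CPM in SmoM2 and rose 2.39-fold (edgeR adjusted p = 0.000738), and the endothelin receptor Ednrb rose 2.06-fold. Fam107a, a gene of outer radial glia in primates, had 0.62, 2.23 and 2.41 CPM in wild type and 15.2, 14.6 and 9.59 CPM in SmoM2 and rose 7.46-fold (edgeR adjusted p = 0.00324). Hopx, another outer radial glia gene, did not pass in edgeR (-1.17 ± 0.37, adjusted p = 0.0617) and passed with DESeq2 (0.0380). The 2 outer radial glia genes thus had log2 fold changes of opposite sign.

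**Figure D3:**
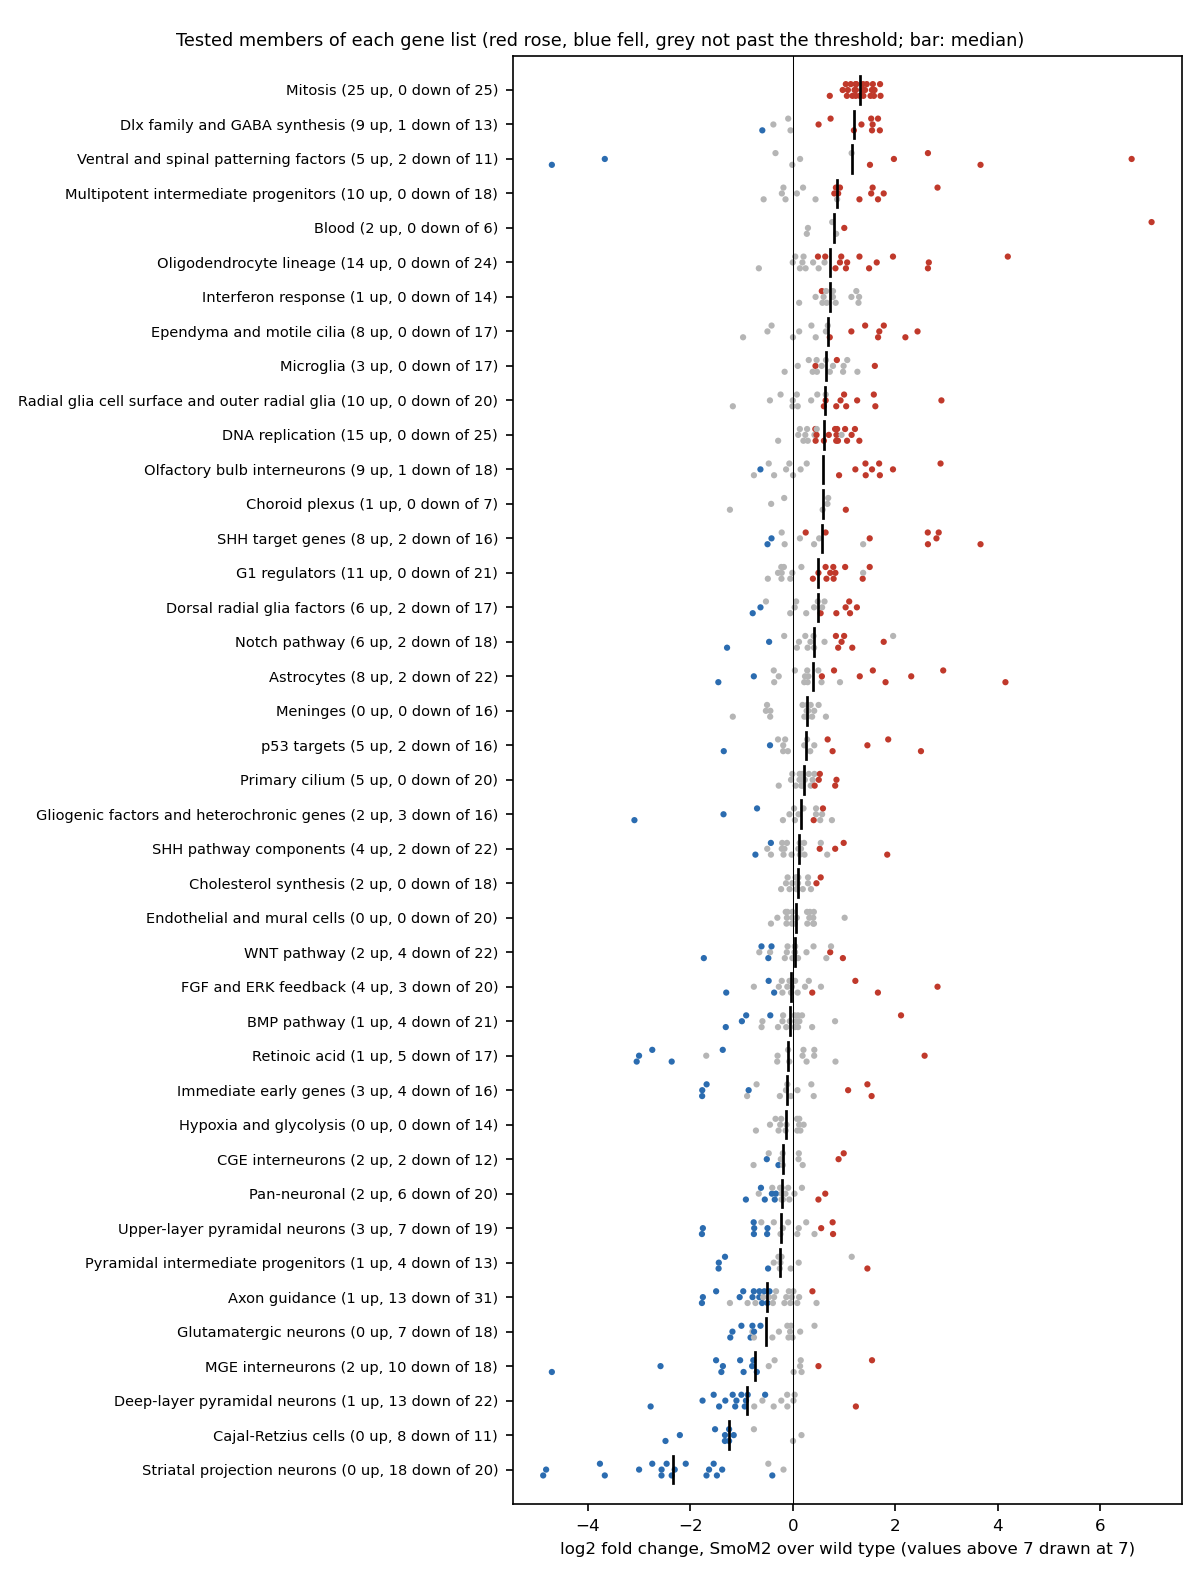
Log2 fold changes (SmoM2 over wild type) of the tested members of 41 gene lists, with each list's median as a bar and the numbers that rose and fell beside its name. Mitosis genes lie highest by median (1.31) and striatal projection neuron genes lowest (-2.33).

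Mitosis was the only one of the lists in which every gene tested rose. All 25 mitosis genes rose, against 9.59% of genes tested, by log2 fold changes between 0.72 (Aurka) and 1.71 (Bub1b), with a median of 1.31, and in all 25 the groups do not overlap, SmoM2 being higher without overlap in 20.4% of genes tested. The call of Aurka was lost without wild-type library 1 or 2 or any SmoM2 library (up to 0.171), and 22 to 25 of the list rose without any 1 library. Mki67, a protein of dividing nuclei, had 42.5, 43.1 and 54.3 CPM in wild type and 111, 134 and 169 CPM in SmoM2 and rose 2.95-fold (edgeR adjusted p = 0.000954). Top2a, the topoisomerase of chromosome condensation, rose 3.0-fold and Cdk1, the mitotic kinase, 1.96-fold. Cdc20, which activates the anaphase complex, had 8.42, 9.14 and 11.6 CPM in wild type and 22.5, 19.1 and 26.8 CPM in SmoM2. Within SmoM2, library 3 was the highest for Mki67, Top2a and Cdc20.

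DNA replication genes rose less evenly: 15 of 25 rose and 0 fell, with a median of 0.61. For this list, the mitosis list and the G1 list 0 genes fell with DESeq2 or limma-voom, and 0 were lower at an unadjusted p under 0.05. Tyms, the thymidylate enzyme, rose 2.46-fold, Uhrf1 2.32-fold, and Mcm5 and Mcm3 of the replicative helicase 2.08-fold and 2.03-fold. Mcm5 had 16.9, 17.2 and 18.4 CPM in wild type and 34.7, 31.4 and 43.4 CPM in SmoM2. Mcm6, another subunit of the same helicase, had 49.2, 42 and 46.4 CPM in wild type and 44.8, 47.7 and 55.5 CPM in SmoM2, overlapping levels with a log2 fold change of 0.11 ± 0.11 (edgeR adjusted p = 0.555). Without SmoM2 library 3 only 7 of the 25 rose.

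Promoter letters differed between these groups of genes. RefSeq promoter windows (GRCm38.p6, 250 bases before to 50 after the start) were matched for 21 of the 25 mitosis genes, 21 of the 25 replication genes and 11520 of the genes tested, and searched on both strands for letters chosen after the data were examined. The CHR letters TTTGAA, named after the cell cycle genes homology region, stood in 16 of 21 mitosis windows (76.2%), in 3 of 21 replication windows (14.3%) and in 14.2% of the windows of all tested genes. CCAAT stood in 85.7% of mitosis, 66.7% of replication and 42.4% of all tested windows. The E2F letters TTTGGCGC or TTTCCCGC stood in 0 of 21 mitosis windows, 7 of 21 replication windows (33.3%) and 3.19% of all tested windows. None of these 3 motifs contains another, though sites can share end letters, and a match is a description of the window only.

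The stretches before the start of 2 mitosis genes and 1 replication gene show how the letters lie, with TTTGAA and CCAAT (or their reverse complements TTCAAA and ATTGG) in capitals for Mki67 and Cdc20, and the E2F letters (as the reverse complement GCGCCAAA) in capitals for Mcm5. Mki67 lies at chr7:135716380-135716629 on the minus strand, Cdc20 at chr4:118437344-118437593 on the minus strand and Mcm5 at chr8:75109259-75109508 on the plus strand.
Mki67: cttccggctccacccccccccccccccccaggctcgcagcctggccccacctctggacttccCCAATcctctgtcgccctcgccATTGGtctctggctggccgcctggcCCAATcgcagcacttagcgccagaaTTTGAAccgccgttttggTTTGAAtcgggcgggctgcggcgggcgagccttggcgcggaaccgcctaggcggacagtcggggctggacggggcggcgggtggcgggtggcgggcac
Cdc20: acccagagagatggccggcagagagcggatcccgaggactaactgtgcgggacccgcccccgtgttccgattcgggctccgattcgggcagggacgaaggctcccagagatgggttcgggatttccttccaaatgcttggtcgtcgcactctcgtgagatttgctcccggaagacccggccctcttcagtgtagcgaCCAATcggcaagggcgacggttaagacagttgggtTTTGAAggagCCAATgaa
Mcm5: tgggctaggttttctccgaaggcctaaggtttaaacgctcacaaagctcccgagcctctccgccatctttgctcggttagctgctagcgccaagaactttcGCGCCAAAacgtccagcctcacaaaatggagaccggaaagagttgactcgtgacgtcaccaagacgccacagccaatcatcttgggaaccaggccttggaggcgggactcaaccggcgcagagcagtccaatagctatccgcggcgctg
In Mki67 the pair of TTTGAA stretches begins 116 and 98 bases before the start, in Cdc20 the single one 18 bases before it, and in Mcm5 the E2F letters begin 149 bases before it. Mcm6, which did not pass, holds the E2F letters too, beginning 110 and 47 bases before its start. By contrast, the GLI consensus TGGGTGGTC stood in 0 of 11 windows of SHH target genes and in 0.26% of tested genes, and the shorter GGGTGGTC in 0 of 11 and 1.11%. That says only that these letters are not in these windows.

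G1 regulators moved in part. Of 22 listed 21 were tested, 11 rose and 0 fell, and 6 rose without SmoM2 library 1 and 4 without SmoM2 library 3. The kinase Cdk4, partner of the D cyclins, had 173, 158 and 148 CPM in wild type and 267, 231 and 258 CPM in SmoM2 and rose 1.58-fold (edgeR adjusted p = 0.00291). Cdk2 rose 2.03-fold and E2f2 2.57-fold. The cell cycle inhibitor Cdkn1a had 19.5, 16.3 and 12.9 CPM in wild type and 13.8, 13 and 13.2 CPM in SmoM2, overlapping levels. It is also a target of p53, for which 5 of 16 listed genes (31.25%) rose and 2 (12.5%) fell. These shares compare with 9.59% and 9.29% of all genes tested. Fas, a death receptor, rose 5.66-fold, Eda2r 3.63-fold and Ccng1 1.71-fold, while Mdm2 (-0.15 ± 0.11) did not pass and Pmaip1, a pro-apoptotic gene, fell 2.54-fold. The call of Pmaip1 was lost without SmoM2 library 2 or 3, where 0 p53 targets fell, and 1 fell without SmoM2 library 1 or wild-type library 1 or 3. Without wild-type library 3, 8 rose.

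Of 25 listed oligodendrocyte lineage genes 24 were tested, 14 rose, 0 fell and 10 did not pass (median 0.73). With DESeq2 and limma-voom 0 fell as well, and 1 was lower at an unadjusted p under 0.05. Gpr17, a receptor of committed precursors, had 28.1, 35.7 and 38.4 CPM in wild type and 99.1, 106 and 82.3 CPM in SmoM2 and rose 2.81-fold (edgeR adjusted p = 0.000641). Sox10, the lineage factor, rose 2.05-fold from 15.5 ± 3.66 to 31.8 ± 2.88 CPM. Bcas1, which marks newly forming oligodendrocytes, rose 3.88-fold and Cnp, an early myelin enzyme, 3.11-fold (edgeR adjusted p = 0.000136). Enpp6 rose 6.29-fold from 0.238 ± 0.049 to 1.51 ± 0.451 CPM. Mobp, a myelin protein gene, had 3 counts over the wild-type libraries and 77 over the SmoM2 libraries, 19.9 times as many after scaling (95% exact counting interval 6.56 to 98.6), and a fitted log2 fold change of 4.20, or 7.54 without wild-type library 2. Pdgfra, the receptor of precursor cells, had 87, 117 and 90.9 CPM in wild type and 135, 137 and 143 CPM in SmoM2 and rose 1.41-fold (edgeR adjusted p = 0.0255), a call lost without wild-type library 1 or 3 or any SmoM2 library (up to 0.0963). Cspg4, also of precursors, did not pass (0.21). The precursor receptor had the smallest fold among the members named here that rose.

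Among astrocyte genes, 8 of 22 listed (36.4%) rose and 2 (9.09%) fell, against 9.59% and 9.29% of all genes tested. Without SmoM2 library 1 or 3, 5 rose, and without SmoM2 library 3, 1 fell. Itih3, which encodes a hyaluronan-binding protein, had 2.12, 1.64 and 3.12 CPM in wild type and 30.4, 43.8 and 47 CPM in SmoM2 and rose 17.7-fold (edgeR adjusted p = 0.000136). Entpd2, an ectonucleotidase of neural stem cells and astrocytes, rose 7.65-fold from 4.64 ± 0.518 to 35.6 ± 5.63 CPM. Ntsr2 rose 4.96-fold and Mlc1 2.95-fold. Gfap, the astrocyte filament, had 7.44, 22.8 and 10.4 CPM in wild type and 41.6, 27.5 and 31.9 CPM in SmoM2, with wild-type library 2 close to SmoM2 library 2. Its rise of 2.47-fold (edgeR adjusted p = 0.0417) was lost without wild-type library 1 or 3 or any SmoM2 library, and the estimate of 1.31 on the log2 scale became 1.91 once wild-type library 2 was left out. The astrocyte genes Aldh1l1 (0.30), Aqp4 (0.28), Slc1a2 (-0.36) and Gja1 (0.50) did not pass in edgeR, while other members of the list rose. Aldh1l1 passed with DESeq2 and without wild-type library 1, Aqp4 without wild-type library 2 (0.63), and Slc1a2 with DESeq2 and without wild-type library 3, while Gja1 ranged from 0.02 to 1.51 without 1 library.

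Genes of ependyma and motile cilia included 8 that rose of 17 tested (20 listed) and 0 that fell, with 0 by DESeq2 and limma-voom and 1 lower at an unadjusted p under 0.05. Foxj1, the factor that switches on motile cilia, had 3.92, 6.28 and 4.05 CPM in wild type and 14.2, 12.9 and 10.9 CPM in SmoM2 and rose 2.66-fold (edgeR adjusted p = 0.00457). Hydin, a protein of the motile axoneme, rose 4.59-fold, Rfx2 3.17-fold and Cfap43 2.21-fold. The count was 4 without SmoM2 library 1 or 3 and 5 without SmoM2 library 2. Primary cilium genes, through which Smoothened signals, rose in 5 of 20 cases (25%), against 9.59% of all genes tested. They were led by Rpgrip1l of the transition zone (1.81-fold) and Evc. There the count was 2 without SmoM2 library 2 or 3 and 3 without wild-type library 2. Of the transport subunits Ift88 (-0.01), Ift140 (0.31) and Kif3a (0.16) did not pass, although Ift140 did with DESeq2, without wild-type library 1 and in the fit of all 9 libraries.

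**Figure D4:**
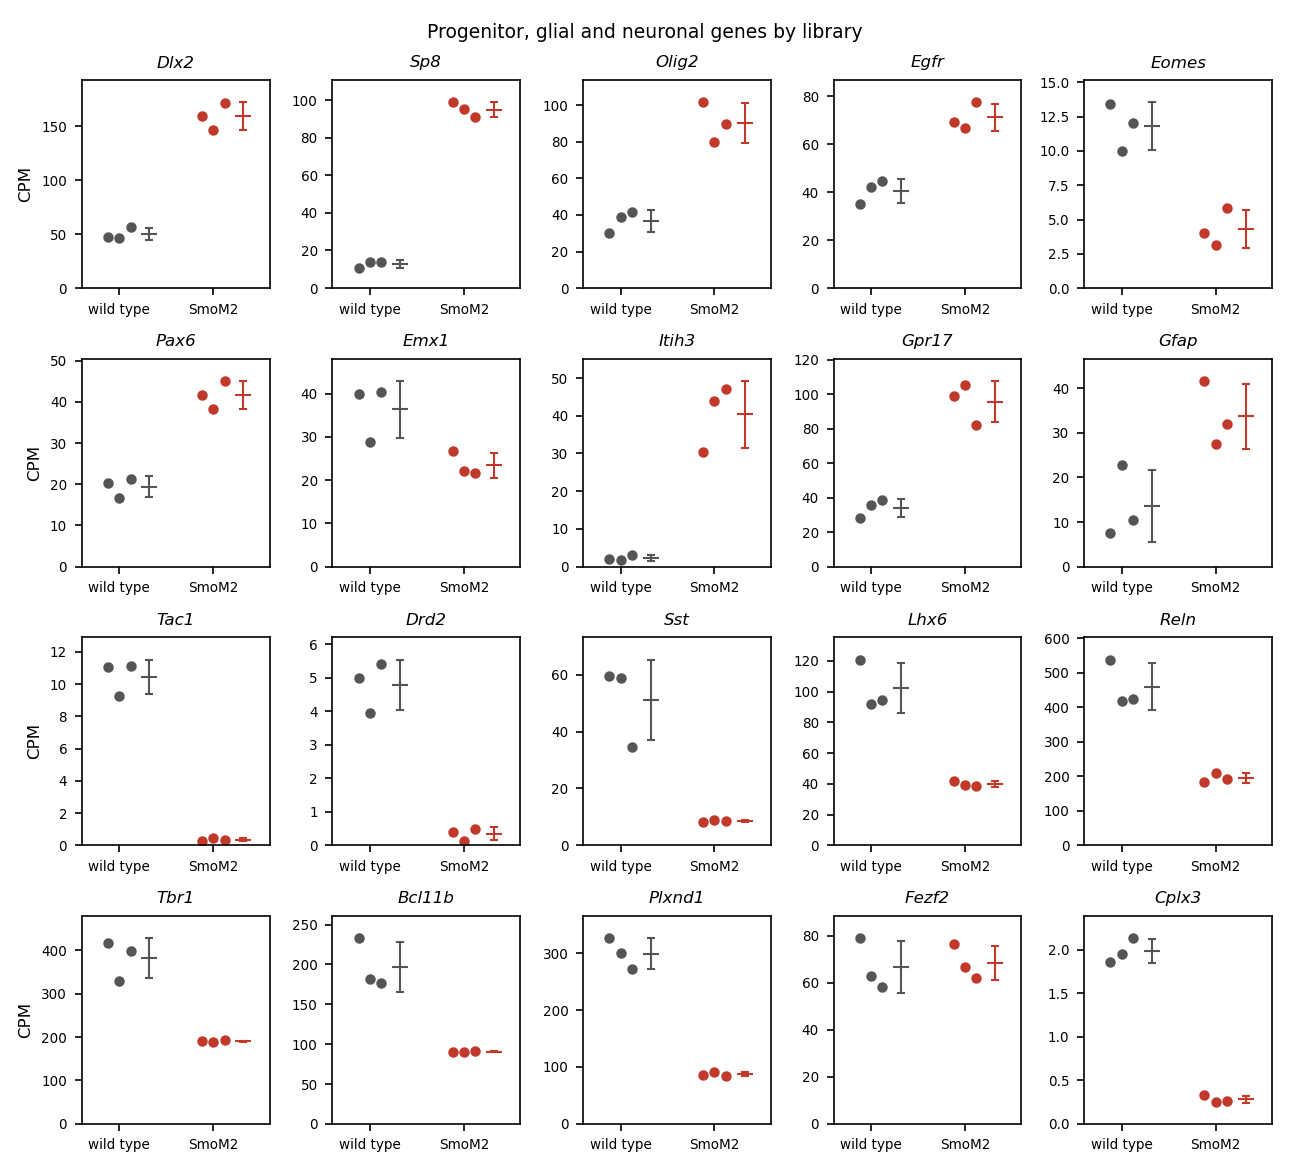
CPM of progenitor, glial and neuronal genes in each library (points), with mean and SD of the 3 libraries of a group (bars). Sp8, Dlx2, Olig2 and Itih3 are higher and Tac1, Drd2, Sst, Lhx6, Tbr1, Plxnd1 and Cplx3 lower in every SmoM2 library, whereas the levels of Fezf2 overlap.

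The lowest median of all lists was that of striatal projection neurons. Of 20 listed 18 fell, against 9.29% of genes tested, and 0 rose, with a median of -2.33. In this list and those of Cajal-Retzius cells and glutamatergic neurons below, 0 genes rose with DESeq2 or limma-voom, and 0 were higher at an unadjusted p under 0.05. Tac1, which encodes substance P, had 11.1, 9.24 and 11.1 CPM in wild type and 0.294, 0.466 and 0.307 CPM in SmoM2 and fell 29.2-fold (edgeR adjusted p = 8.1e-05). Six3, a factor of indirect pathway neurons, fell 28.1-fold from 4.52 ± 0.176 to 0.154 ± 0.0995 CPM, or -4.81 on the log2 scale, which became -5.43 once SmoM2 library 3 was left out. The dopamine receptor Drd2 had 5.01, 3.96 and 5.42 CPM in wild type and 0.404, 0.127 and 0.498 CPM in SmoM2 and fell 13.6-fold, and Ppp1r1b (DARPP-32) had 97.3, 67.7 and 91.6 CPM in wild type and 12.7, 13.7 and 20.2 CPM in SmoM2 and fell 5.5-fold. Ebf1, a factor of direct pathway neurons, fell 7.99-fold. Drd1 had 19.4, 15.5 and 28.8 CPM in wild type and 5.69, 10.7 and 6.48 CPM in SmoM2 and fell 2.79-fold (edgeR adjusted p = 0.0119), lost without SmoM2 library 1 or 3 (up to 0.0575). Foxp1 (-0.48) and Ikzf2 (-0.18), also expressed in the cortex, did not pass in edgeR, although Foxp1 passed with DESeq2 (-0.48, adjusted p = 0.0166) and without wild-type library 2 (-0.64, edgeR adjusted p = 0.00744). Summed over the list the level was 606 to 835 CPM in wild type and 350.5 to 362 CPM in SmoM2. These genes are markers of the tissue beneath the cortex, and how much striatum each dissection held was not tested. A difference in dissection cannot be told apart from a difference in the tissue.

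Interneuron genes of the medial ganglionic eminence (MGE) fell in 10 of 18 cases (55.6%) and rose in 2 (11.1%, 1 gene without SmoM2 library 1). Of all genes tested 9.29% fell and 9.59% rose, so the share that rose was near that of all genes. Lhx6, which specifies these interneurons, had 121, 91.7 and 94.5 CPM in wild type and 42, 39 and 38.3 CPM in SmoM2 and fell 2.57-fold (edgeR adjusted p = 0.000512). Sst, the neuropeptide somatostatin, had 59.6, 59 and 34.7 CPM in wild type and 8.18, 8.77 and 8.7 CPM in SmoM2 and fell 5.98-fold. Nos1 fell 2.82-fold and Nxph1 2.63-fold. Sox6 (0.16) and Cxcr4 (0.17) did not pass, and Sp9, shared with olfactory bulb interneurons, rose. The summed level of the list was 1458 to 1657 CPM in wild type and 1218 to 1369 CPM in SmoM2. Of 12 genes of the caudal eminence, 2 (16.7%) rose and 2 (16.7%) fell, against 9.59% and 9.29% of all genes tested. Prox1 rose 1.86-fold from 20.3 ± 4.31 to 37.8 ± 3.34 CPM, and Htr3a, the serotonin receptor of these cells, 1.99-fold (edgeR adjusted p = 0.0216, lost without wild-type library 2 or any SmoM2 library). The falls of Cck and Cnr1 were lost without 5 of the 6 libraries, so 0 or 1 fell in fits without 1 library, and 1 rose without wild-type library 2 or any SmoM2 library.

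Deep-layer pyramidal neuron genes fell in 13 of 22 cases (59.1%) and rose in 1 (4.5%), Crym (0 without wild-type library 1 or any SmoM2 library). The median was -0.90, and of all genes tested 9.29% fell and 9.59% rose. Tbr1, whose values by library are given above, fell 2.0-fold (edgeR adjusted p = 0.000655). Bcl11b, the factor of subcerebral neurons, had 233, 182 and 177 CPM in wild type and 90.3, 90.1 and 91.1 CPM in SmoM2 and fell 2.18-fold. Sox5 fell 2.25-fold and Foxp2 2.92-fold. The summed wild-type counts of these genes and of Bcl11b differ between the deposited tables, by 0.14 (Sox5), 0.86 (Foxp2) and -0.46 (Bcl11b) as log2 ratios of the SmoM2 table over the ShhN IUE table. Cplx3, a subplate gene, had 1.86, 1.96 and 2.13 CPM in wild type and 0.33, 0.254 and 0.268 CPM in SmoM2 and fell 6.83-fold (edgeR adjusted p = 0.000761). Fezf2, which specifies the subcerebral neurons upstream of Bcl11b, had 79, 62.8 and 58.3 CPM in wild type and 76.4, 66.7 and 62 CPM in SmoM2, overlapping levels with a log2 fold change of 0.04 ± 0.14 (edgeR adjusted p = 0.878). Bcl11b and Foxp2 are expressed in the striatum as well, and both fell.

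Upper-layer genes fell in 7 of 19 tested cases (36.8%, against 9.29% of all genes tested) and rose in 3 (15.8%, against 9.59%). Plxnd1, a semaphorin receptor of callosal neurons, had 326, 299.7 and 272 CPM in wild type and 86, 91.8 and 84.9 CPM in SmoM2 and fell 3.42-fold (edgeR adjusted p = 8.1e-05). Unc5d, a netrin receptor of newly born upper-layer neurons, fell 3.37-fold from 79.3 ± 13.4 to 23.5 ± 1.27 CPM. Cux1 and Rorb, factors of layers II to IV, fell 1.7-fold and 1.68-fold.

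Cajal-Retzius cells, the transient neurons of the cortical surface, had 8 of 11 listed genes fall (5 without SmoM2 library 3) and 0 rise. Reln, the glycoprotein they secrete, had 538, 417 and 424 CPM in wild type and 182, 209 and 192 CPM in SmoM2 and fell 2.37-fold (edgeR adjusted p = 0.00053). Ebf2 fell 5.59-fold and Cacna2d2 2.5-fold. Trp73 had 13.4, 9.55 and 7.77 CPM in wild type and 4.62, 5.17 and 4.03 CPM in SmoM2 and fell 2.22-fold, lost without SmoM2 library 3 (0.0621). Lhx1 fell 4.6-fold, lost without SmoM2 library 1 or 3, the estimate moving from -2.20 to -2.80 on the log2 scale without SmoM2 library 2. Reln is also expressed by interneurons, so its level does not belong to these cells alone.

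Among general neuronal genes, the median log2 fold change was -0.51 for the glutamatergic list and -0.22 for the pan-neuronal list. Of 18 glutamatergic genes 7 fell and 0 rose, with Slc17a6, a vesicular glutamate transporter, falling 2.33-fold from 48.9 ± 6.71 to 21 ± 2.56 CPM and Neurod2, a factor of postmitotic pyramidal neurons, 1.77-fold. Its relative Neurod6 had 529.9, 477 and 519.5 CPM in wild type and 559.5, 561 and 566 CPM in SmoM2 and did not pass (0.14 ± 0.08). Slc17a7 did not pass (-0.76 ± 0.30), with wild-type library 3 (50.9 CPM) at the level of SmoM2, and passed without that library (-1.06, adjusted p = 0.00184). Of 20 pan-neuronal genes 6 (30%) fell and 2 (10%) rose, against 9.29% and 9.59% of all genes tested. Among them were Snap25 of the release machinery (1.54-fold lower), Cplx2 (1.46-fold lower) and Elavl4 (1.55-fold higher). For Snap25 the wild-type log2 ratio of the SmoM2 table over the ShhN IUE table was -0.75. In fits without wild-type library 1 or any SmoM2 library 2 fell, and 1 rose without SmoM2 library 1. Tubb3 (0.18), Stmn2 (-0.19) and Map2 (-0.21) did not pass.

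Other signalling pathways were compared with the shares of all genes tested, of which 9.59% rose and 9.29% fell. In the Notch pathway 6 of 18 genes (33.3%) rose and 2 (11.1%) fell (1 without SmoM2 library 3). The receptor Notch1 had 73, 77.7 and 76.5 CPM in wild type and 137, 142 and 160.2 CPM in SmoM2 and rose 1.94-fold, the ligand Jag1 rose 2.24-fold, and the modifiers Lfng 2.0-fold and Mfng 3.42-fold. Hey1, a nuclear effector, fell 2.43-fold from 34.1 ± 1.97 to 14 ± 1.38 CPM. In the WNT pathway 2 of 22 tested members (26 listed) rose, or 9.09%, and 4 fell, or 18.2%, so the share that rose was at that of all genes. The ligand Wnt7b had 344, 235 and 311 CPM in wild type and 103, 84.5 and 79.9 CPM in SmoM2 and fell 3.33-fold (edgeR adjusted p = 0.00048), and the receptor Fzd8 fell 1.53-fold, lost without SmoM2 library 2 or 3. The receptor Lrp5 rose 1.66-fold, lost without wild-type library 3 or SmoM2 library 1 or 3, and the effector Tcf7l2 1.97-fold, lost without wild-type library 3 or any SmoM2 library. The WNT target Axin2 was at -0.01. Without SmoM2 library 2 or 3, 1 WNT gene fell, and without SmoM2 library 1 or wild-type library 2 or 3, 2 fell. The number that rose was 0 without wild-type library 3 or SmoM2 library 1 or 3, 1 without SmoM2 library 2 and 4 without wild-type library 2.

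In the BMP pathway 1 of 21 genes (4.76%) rose and 4 (19.05%) fell. Fst, a secreted antagonist, had 18, 10.3 and 9.63 CPM in wild type and 57.7, 58.9 and 47.1 CPM in SmoM2 and rose 4.32-fold (edgeR adjusted p = 0.00104). The ligand Bmp2 fell 2.47-fold and the inhibitory Smad7 1.88-fold, both lost without SmoM2 library 2 or 3, and the antagonist Grem1 1.99-fold, lost without wild-type library 2 or any SmoM2 library. Without SmoM2 library 1, 2 fell, and without SmoM2 library 2 or 3, 0 did. The BMP target genes Id1 (0.18), Id3 (0.04) and Id4 (0.04) did not pass. Among FGF ligands and feedback genes 4 of 20 (20%) rose and 3 (15%) fell. Besides Fgf15, Fgf1 rose 3.16-fold (lost without SmoM2 library 3), and Fgf18 fell 2.46-fold (lost without SmoM2 library 2 or 3). The receptor Fgfr1 fell 1.29-fold, a call lost without wild-type library 2 or any SmoM2 library and in the fit of all 9 libraries. The ERK feedback genes Spry1 (-0.27), Spry2 (-0.06) and Spry4 (-0.22) did not pass. Without SmoM2 library 1 or 2, 2 FGF genes rose, and 1 without SmoM2 library 3, while 1 fell without wild-type library 2 or SmoM2 library 1 and 0 without SmoM2 library 2 or 3.

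Retinoic acid genes showed large changes of opposite sign. Of 17 tested of 18 listed, 5 (29.4%) fell and 1 (5.88%) rose (0 without SmoM2 library 1, 2 without wild-type library 1). These shares compare with 9.29% and 9.59% of all genes tested. Aldh1a3, a retinoic acid synthase, had 1.6, 1.0 and 0.219 CPM in wild type and 8.44, 4.96 and 3.57 CPM in SmoM2 and rose 5.95-fold (edgeR adjusted p = 0.0161, or 0.0619 without SmoM2 library 1). Cyp26b1, which degrades retinoic acid, had 21.3, 37.8 and 8.37 CPM in wild type and 3.71, 1.27 and 3.14 CPM in SmoM2 and fell 8.25-fold, its log2 fold change of -3.04 being -2.45 without wild-type library 2. Crabp1, a binding protein, fell 7.99-fold from 11.9 ± 2.03 to 1.49 ± 0.214 CPM. The receptors Rarb and Rxrg, both also expressed by striatal neurons, fell 6.68-fold and 5.14-fold. Rara (-0.07) and Rxra (0.21), the broadly expressed receptors, did not pass.

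Of 16 tested genes (17 listed) that time the output of progenitors 2 (12.5%) rose, near the 9.59% of all genes tested, and 3 (18.8%) fell, against 9.29%. Lin28b, which blocks let-7 maturation and marks early development, had 16.4, 15.6 and 15.4 CPM in wild type and 1.87, 2.12 and 1.57 CPM in SmoM2 and fell 8.51-fold (edgeR adjusted p = 0.000106). Igf2bp2 fell 2.55-fold and Hmga1 1.62-fold, whereas Igf2bp3 rose 1.5-fold. The gliogenic factors Nfia (0.03), Nfib (-0.06), Nfix (0.45) and Sox9 (0.57) did not pass in edgeR. Nfix passed with DESeq2, with the replicate block and without wild-type library 1 or SmoM2 library 2, and Sox9 with DESeq2 and without wild-type library 3. The number that rose was 1 without wild-type library 2 or SmoM2 library 1 or 3 and 4 without wild-type library 3.

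Axon guidance genes fell in 13 of 31 cases (41.9%) and rose in 1 (3.23%), Nrp1, against 9.29% and 9.59% of all genes tested. The call of Nrp1 was lost without wild-type library 1 or 2 or any SmoM2 library. The ephrin receptor Epha3 had 164, 126 and 114 CPM in wild type and 44, 54.6 and 44.8 CPM in SmoM2 and fell 2.82-fold (edgeR adjusted p = 0.000766), and Sema3c fell 1.72-fold from 61.9 ± 6.61 to 35.9 ± 0.71 CPM. Epha4, Epha5 and Epha7 fell too, by 0.65, 0.97 and 0.56 on the log2 scale, the call of Epha7 being lost without SmoM2 library 3, while Dcc (0.09) and Slit1 (-0.02) did not pass. Of 16 immediate early genes, which report recent activity or handling, 3 (18.75%) rose and 4 (25%) fell, against 9.59% and 9.29% of all genes tested. Arc rose 2.9-fold from 3.32 ± 1.19 to 9.68 ± 2.32 CPM, and Egr3 and Fosb fell 3.41-fold and 3.21-fold. Fos (-0.25) and Egr1 (-0.11) did not pass.

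Markers of cells that do not arise from cortical progenitors were compared in the same way. Of 20 endothelial and mural genes 0 rose and 0 fell, with a summed level of 383 to 662 CPM in wild type and 508 to 563 CPM in SmoM2, and 6 rose without wild-type library 2. Of 16 meningeal genes 0 passed in either direction. For both lists the count was also 0 with DESeq2 and limma-voom, and 0 at an unadjusted p under 0.05. Of 17 tested microglial genes 3 (17.65%) rose, among them Fcrls and Cx3cr1, against 9.59% of all genes tested. The summed levels of the list were 69 to 142 CPM in wild type and 136 to 177 CPM in SmoM2. The microglial count was 9 without wild-type library 2, 0 without SmoM2 library 1 and 1 without each of the others, and the call of Fcrls was lost without SmoM2 library 1 and that of Cx3cr1 without wild-type library 1 or 3 or any SmoM2 library. Of 7 tested choroid plexus genes 1 (14.3%) rose, Clic6 (edgeR adjusted p = 0.0455, lost without any of the 6 libraries in turn). The defining marker Ttr was too low to test. The number was 2 without wild-type library 2 and 0 without SmoM2 library 2 or 3. Wild-type library 2 was the highest of its group for the vascular, microglial and meningeal sums.

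Of 6 tested blood genes 2 rose, Hba-a2 and Alas2. The reads of Hba-a2 cannot be separated from those of its near-identical neighbour Hba-a1: Hba-a2 had 3 counts over the wild-type libraries and 2504 over the SmoM2 libraries, whereas the sum of both was 118 ± 42.3 in wild type and 179 ± 80.9 in SmoM2 (SD, 3 libraries, exact permutation p = 0.4), both unscaled CPM. Alas2 lost its call without wild-type library 1 or 3 or any SmoM2 library, and 1 blood gene rose without wild-type library 3 or any SmoM2 library. Of 14 interferon response genes 1 (7.14%) rose, Stat2 (1.48-fold), against 9.59% of all genes tested. All 14 had positive log2 fold changes, with a median of 0.72, and 2 rose without wild-type library 1 and 6 without wild-type library 2. Of 14 hypoxia and glycolysis genes 0 passed (1 fell without wild-type library 3), with a range from -0.72 to 0.21, in edgeR. At an unadjusted p under 0.05, 4 were lower, and 0 passed with DESeq2 or limma-voom. Of 18 cholesterol synthesis genes 2 rose, Dhcr7 and Cyp51, which is 11.1% against 9.59% of all genes tested, and 0 rose without any of the SmoM2 libraries, 1 without wild-type library 1 or 2 and 4 without wild-type library 3.

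Outside the lists, the largest changes among abundant genes with agreeing wild-type counts in both deposited tables were named by a rule. Rpl26, a ribosomal protein gene with many near-identical pseudogene copies, had 0.878, 1.23 and 0.821 CPM in wild type and 109, 94.9 and 113 CPM in SmoM2. It rose 107-fold (edgeR adjusted p = 1.6e-06), a value that is uncertain because how reads were divided between copies was not tested. Myo7a, an unconventional myosin of sensory hair cells, had 1.5, 2.0 and 1.53 CPM in wild type and 23.4, 22.4 and 23.7 CPM in SmoM2 and rose 13.7-fold (edgeR adjusted p = 4.8e-05). Padi2, a peptidyl arginine deiminase, had 0.775, 1.0 and 3.83 CPM in wild type and 12.3, 10.2 and 12.4 CPM in SmoM2, and its estimate of 2.66 on the log2 scale became 3.71 once wild-type library 3 was left out. The other rises named by that rule were Itih3, Entpd2, Fam107a, Sp8, Hhip, Ptch1 and Nkx2-2, all described above.

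Among the falls chosen by the same rule, Rasgrp1, a Ras activator, had 42.8, 27.1 and 22.1 CPM in wild type and 2.57, 2.42 and 3.18 CPM in SmoM2 and fell 11.2-fold (edgeR adjusted p = 0.00028). Nexn, an actin-binding protein, fell 9.13-fold from 10.6 ± 2.23 to 1.16 ± 0.233 CPM. Dio2, the enzyme that activates thyroid hormone, had 11.7, 17.4 and 20.7 CPM in wild type and 2.27, 0.932 and 2.38 CPM in SmoM2 and fell 8.84-fold (edgeR adjusted p = 0.00119). P2ry1, a purinergic receptor, had 10.4, 11.6 and 15.9 CPM in wild type and 1.65, 1.65 and 1.26 CPM in SmoM2 and fell 8.25-fold. For Rasgrf1, another Ras activator, the levels were 18.9, 14.6 and 4.81 CPM in wild type and 1.25, 1.91 and 1.69 CPM in SmoM2, and for Slc6a7, a proline transporter, 26.5, 24.8 and 6.29 CPM in wild type and 2.27, 3.39 and 2.84 CPM in SmoM2. In the last pair wild-type library 3 lay well below wild-type libraries 1 and 2 but still above every SmoM2 library. Tac1, Lin28b, Crabp1 and Rarb complete the group.

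The SmoM2 libraries were also set directly against the ShhN IUE libraries for a fixed group of genes, in a joint fit of 9 libraries over 12349 genes with agreeing wild-type counts. That fit called 2040 genes (16.5%), 1043 higher in SmoM2 (8.45%) and 997 lower (8.07%). CPM in it are relative to fewer genes and are higher than those above. The pathway readouts Gli1 (log2 difference 0.19 ± 0.32), Ptch1 (0.65 ± 0.31) and Hhip (0.60 ± 0.49) did not pass. Without ShhN IUE library 3 they all passed, Gli1 at 0.78 (edgeR adjusted p = 0.0146), Ptch1 at 1.20 (0.00305) and Hhip at 1.69 (0.00215), so these results rest on that library. The values of Sp8 (-0.08), Dlx2 (0.06), Mki67 (-0.19) and Tac1 (-0.06) did not pass. Levels of Ptch1 were 413, 455 and 445 CPM in SmoM2 and 205, 176 and 457 CPM in ShhN IUE, where library 3 was at the SmoM2 level and the other libraries were lower. Smo was higher in SmoM2 (1.86-fold, edgeR adjusted p = 0.00352). Gli2 was 1.83-fold lower in SmoM2 than in ShhN IUE (edgeR adjusted p = 0.00713), and Gsx2 was 1.89-fold lower (0.0147), a call lost without SmoM2 library 1 or 2 or ShhN IUE library 1. Eomes was at 6.08, 4.76 and 8.83 CPM in SmoM2 and at 22.7, 51.1 and 14.9 CPM in ShhN IUE, 4.50-fold lower in SmoM2 (edgeR adjusted p = 0.00703). Against their shared wild-type libraries, in each table's own fit, the log2 fold change of Eomes was -1.45 in SmoM2 and 0.76 in ShhN IUE, the latter not past the threshold. Pax6 and Bcl11b have wild-type counts that differ between the tables and were not tested in this contrast.

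The authors' deposited table carries their own calls for SmoM2 against wild type, 715 genes up and 728 down. Of these, 642 and 575 were among the genes tested here. Of the genes up in the authors' deposited table, 584 also rose here. Of those down, 538 also fell here, and 0 had opposite directions.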

How the data were processed

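Total RNA of P0 cortex was sequenced in 3 wild-type and 3 SmoM2 libraries. Gene counts were deposited by the authors. Per the submitters' processing notes, HISAT2, StringTie and edgeR were used with GRCm38.p4 and mm10, their roles and order not being given there. Strand and the handling of multiply mapped reads are not given in the sources used here. The FPKM values, p-values and q-values were deposited by the authors per the file headers. Counts of the wild-type libraries differ between the deposited tables, so tests stayed within the SmoM2 table.

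Groups were compared with edgeR 4.0.16 (R 4.3.3) after filterByExpr and TMM scaling, by quasi-likelihood F test, at a Benjamini-Hochberg adjusted p under 0.05. Alternatives were RLE and upper quartile scaling, other filters, DESeq2 1.42.0, limma-voom 3.58.1, a replicate block, a 2-fold minimum (glmTreat), leaving out each library, genes whose wild-type counts agreed between tables (within 0.1 on the log2 scale of summed counts plus 5) and, added after seeing the data, a joint fit of 9 libraries. The exact counting intervals cover counting error only.

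Named were the 10 largest rises and falls among called genes with a mean of at least 5 CPM, agreeing wild-type counts and no overlap. A fixed set was also named. From every list, up to 4 tested genes were taken in order of adjusted p, whether or not they passed the threshold. Other genes, and the promoter motifs of the cell cycle genes, were chosen after their values were seen. The members and all 42 lists were chosen with earlier results of these data known. Some genes are not reported here by name, though list counts and medians include them. Scripts were tested on simulated data.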

Additional observations from a re-analysis of the deposited data

Results flagged for a closer look

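In the direct contrast of SmoM2 with ShhN IUE, 6 of the genes reported from the fixed group differed (edgeR joint fit, log2 difference written as SmoM2 over ShhN IUE). Smo was higher in SmoM2 by 0.8954 (adjusted p = 0.00352), and Shh lower at -4.875 (adjusted p = 0.00799). Shh stood at 43.2 CPM in ShhN IUE library 3 and at 3.99 and 4.73 CPM in ShhN IUE libraries 1 and 2. Counts of Smo in SmoM2 and of Shh in ShhN IUE may include reads of the introduced transcripts, which was not tested. Gli2 differed by -0.8745 (adjusted p = 0.00713) and Eomes by -2.169 (adjusted p = 0.00703). For Gli3 the difference was -0.6455 (adjusted p = 0.0131, up to 0.0648 without SmoM2 library 2 or ShhN IUE library 1) and for Gsx2 -0.9174 (adjusted p = 0.0147, up to 0.0692). The call of Gsx2 was lost without SmoM2 library 1 or 2 or ShhN IUE library 1. Method of delivery and agent differ together between these groups, and an electroporated control without ShhN was not analysed here, so the contributions of the agent and of electroporation cannot be told apart.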

How the results depend on the processing

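Without 1 library at a time, 733 to 1598 genes rose and 601 to 1412 fell. A required 2-fold minimum left 98 and 82. Correlations of deviations between same-numbered libraries were -0.12, -0.17 and 0.06, and between differently numbered libraries -0.09 to 0.22. Being taken from deviations around means of 3 libraries, they cannot decide whether the numbers pair the samples. A replicate block gave 1268 rises and 1200 falls, with 10 named calls lost and 2 gained. Under the other scalings, filters and tools both counts stayed within 1.5 times. Of 273 named genes, chosen after their values and in part their alternatives were seen, 191 passed. Apart from the 2-fold minimum, 145 of these kept the call in every alternative that tested them, 46 lost it in at least 1 and 0 changed sign. In 38 of 84 list counts, leaving out 1 library moved the count by over 1.5 times. Depth limits genes near the filter, and 3 libraries a group limit the rest.

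Estimates that changed sign, none past the threshold in the reported fit, are given by their log2 values. Axin2 had -0.1367 to 0.1773 without 1 library and 0.01658 (no expression filter), 0.00874 (limma-voom), 0.01388 (replicate block), Bgn -0.03207 to 1.145 without 1 library, and Cdkn1b -0.2281 to 0.3002 without 1 library and 0.01482 (limma-voom), 0.008011 (replicate block). Dcc had -0.07271 to 0.1929 without 1 library, Dcx -0.09283 to 0.004587 without 1 library, and Ddx3y -0.3823 to 0.6921 without 1 library. Fabp7 had -0.2041 to 0.304 without 1 library and -0.00355 (RLE scaling), -0.002682 (upper quartile scaling), -0.003005 (1 CPM filter), -0.003367 (DESeq2), Fezf2 -0.04106 to 0.1768 without 1 library, and Fmod -1.695 to 0.3671 without 1 library. Gad2 had -0.1633 to 0.006991 without 1 library, Hba-a1 -0.107 to 0.5851 without 1 library, and Id3 -0.09596 to 0.2784 without 1 library. Id4 had -0.06457 to 0.1471 without 1 library, Ift88 -0.05447 to 0.1041 without 1 library and 0.01664 (no expression filter), 0.01902 (joint fit of 9 libraries), and Igf2 -0.9872 to 0.55 without 1 library and 0.01491 (limma-voom). Ikzf2 had -0.5033 to 0.254 without 1 library, Lum -1.053 to 0.58 without 1 library and 0.1967 (limma-voom), 0.009711 (replicate block), and Nfia -0.05209 to 0.1208 without 1 library. Nfib had -0.2167 to 0.1255 without 1 library, Rara -0.13 to 0.03824 without 1 library, and Slit1 -0.1099 to 0.1347 without 1 library and 0.006861 (no expression filter). Spry2 had -0.1074 to 0.0007068 without 1 library, Spry4 -0.4387 to 0.07729 without 1 library, and Synpr -0.08206 to 0.1233 without 1 library. Gli1 against ShhN IUE had -0.03993 to 0.7796 without 1 library, Dlx2 against ShhN IUE -0.008022 to 0.1925 without 1 library, and Sp8 against ShhN IUE -0.2211 to 0.1093 without 1 library. Gfap against ShhN IUE had -0.02262 to 0.2878 without 1 library, and Tac1 against ShhN IUE -0.2856 to 0.3375 without 1 library. The cause of these changes was not tested.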

Other observations

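Further members of the lists that rose in SmoM2 were Sufu, which binds and restrains GLI factors, at a log2 fold change of 0.53, and the SOX factors Sox21 (0.54) and Sox3 (1.03) of neural progenitors (edgeR, adjusted p under 0.05). Olig1, the partner of Olig2, stood at 0.92, and Vax1 and Etv1, transcription factors of olfactory bulb interneurons, at 1.70 and 1.22. Stat3, which transmits gliogenic cytokine signals, stood at 0.41. Among interneuron genes of the medial ganglionic eminence, Satb1 rose (0.50), whereas Maf and the neuropeptide gene Npy fell (-0.96 and -0.70). Pcp4, a calmodulin-binding protein of deep-layer and striatal neurons, fell as well (-1.44). Without SmoM2 library 1 the calls of Sox3, Satb1, Etv1 and Stat3 were lost, without SmoM2 library 3 those of Sufu, Etv1 and Stat3, and without SmoM2 library 2 those of Etv1 and Stat3. Etv1 also lost its call without wild-type library 1, with upper quartile scaling (adjusted p = 0.0551) and with DESeq2 (0.0606), and Stat3 without wild-type library 2. These genes were chosen after their values were seen.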
